A study of Mus musculus with 12 samples.

Results

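Transcripts of 101 genes that encode splicing factors and nuclear RNA-binding proteins were followed among the 9073 genes counted. They were chosen by name alone, as mouse symbols starting with Hnrnp, Srsf, Snrp, Sf3 or Prpf, or with Rbm or Lsm and a digit. The set holds 20 Hnrnp, 10 Srsf, 12 Snrp, 9 Sf3, 11 Prpf, 12 Lsm and 27 Rbm genes, and 1 entry that RefSeq lists as a pseudogene, Rbm8a2, was left out. A further 15 protein-coding symbols of the same form, among them Srsf12, Prpf4, Prpf40b, Rbm20 and Rbm47, are not in the count table, which lists only genes with at least 1 count in every column.

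RNA came from samples labelled as neurons of the adult dorsal root ganglion (DRG), from mice labelled RPL22HA+/+;Advillin-Cre+. In this RiboTag design the Cre, driven by the sensory neuron gene Advillin, turns on ribosomal protein L22 with a haemagglutinin (HA) tag, so that anti-HA immunoprecipitation (IP) recovers RNA on the ribosomes of Cre-expressing neurons, while the Input is lysate RNA from every cell present. Neurons had received an adeno-associated virus labelled AAV-control or AAV-shGpr151, a short hairpin RNA named for the orphan receptor gene Gpr151. The 4 groups, all of 1 genotype, were the Input and the IP of the control treatment (Input control, IP control) and those of the hairpin (Input shGpr151, IP shGpr151). The design text describes cultured neurons of mice given a preconditioning sciatic nerve injury, whereas the extraction protocol describes fresh ganglia, and the labels used here give no age beyond adult.

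Each group has 3 columns of counts, but they were not treated as replicates. Within groups, chi-square per degree of freedom was 0.980 to 1.05 over 12 pairs, and between groups it was 1.80 to 156 over 54 pairs, so the columns of any group differed by no more than counting noise. Summed columns thus made 1 sample of each group, with 6332991 counts in Input control, 6148538 in Input shGpr151, 4245486 in IP control and 3285258 in IP shGpr151. No comparison has a replicate check. All intervals are 95% intervals computed from the summed counts, so they cover counting error only and no spread between samples. Reads amplified by PCR and not marked by molecular identifiers need not stem from separate molecules. The intervals may thus be too narrow even for counting error. Gpr151 had 24 and 13 counts in Input control and Input shGpr151, and 314 and 250 in IP control and IP shGpr151, where its log2 ratio was 0.00 (-0.25 to 0.24), so the IP library labelled shGpr151 did not show less of it. The libraries are named by their labels throughout.

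Of 18 neuronal markers, 16 were called higher in IP than in Input in control, with summed levels of 1805 and 1996 CPM (counts scaled to a common column total) in the Input libraries and 25013 and 24604 CPM in the IP libraries. Marker calls follow the rule and the scaled library sizes given below, which called 30.5% of all tested genes higher and 30.7% lower. Macrophage markers had 9 of 10 called lower on that scale. Their summed levels in plain CPM were not lower in IP, at 466 and 495 in Input and 539 and 562 in IP. The macrophage markers Cd74 and Ptprc are not among the genes counted. Satellite glia markers summed to 1025 and 929 CPM in Input and 3826 and 3798 CPM in IP, with 4 of 11 higher and 4 lower. In such bulk RNA, fewer cells of a type and less RNA per cell cannot be told apart.

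Introns are removed from pre-mRNA by the spliceosome, which is built from small nuclear ribonucleoproteins (snRNPs). Each of the U1, U2, U4 and U5 snRNAs carries a ring of Sm proteins, encoded by Snrp genes, and U6 carries a related ring of LSm proteins. The SF3A and SF3B complexes, encoded by Sf3 genes, hold U2 snRNP at the branch point, and Prpf genes encode subunits and helpers of the U4/U6.U5 tri-snRNP and of later steps. SR proteins (Srsf) and hnRNP proteins bind the pre-mRNA itself and shift the choice of splice sites, many hnRNPs also shuttle to the cytoplasm with mRNA, and the Rbm genes are a mixed family defined by RNA recognition motifs. In sensory neurons these proteins shape the isoforms of ion channels and cytoskeletal genes.

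In all, the 101 genes took 1.26% of the counts in Input control, 1.29% in Input shGpr151, 1.10% in IP control and 1.12% in IP shGpr151. Without Rbm5, a single gene with an outsized Input count, the shares were 0.775%, 0.905%, 1.09% and 1.10%. The median member had 90 counts in Input control, 101 in Input shGpr151, 192 in IP control and 150 in IP shGpr151. A filter on low counts was passed by 8312 genes in all and by 99 members, and Srsf4 and Rbm14, with 16 to 30 counts in each library, did not pass. Ratios are log2 ratios of summed counts over library sizes scaled by trimmed mean of M values (TMM), which centres them near the typical gene. Calls of higher or lower were made where a ratio was at least 1.5-fold with a counting interval that left out 0. Such a call compares 2 libraries, not conditions.

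IP was first compared with Input in the control libraries, to see which members were higher or lower in IP relative to the typical gene. Transcripts of the small ring proteins of the snRNPs were far lower in IP, while several regulators, led by Hnrnpf, were higher. Of the 99 members, 18 were called higher and 44 lower, against 30.5% of all tested genes higher and 30.7% lower. The members' median log2 ratio was -0.49, that of all tested genes 0.06. TMM sizes place each of these ratios 2.17 below the ratio of plain CPM, and on library totals alone 79 members were called higher and 10 lower, against 81.5% and 9.70% of all genes. Members whose ratio lies less than 2.17 below 0 thus change direction with the scaling: of the 44 called lower, 29 lay above 0 on totals and 24 were called higher there. All directions below are on TMM sizes.

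**Figure D1:**
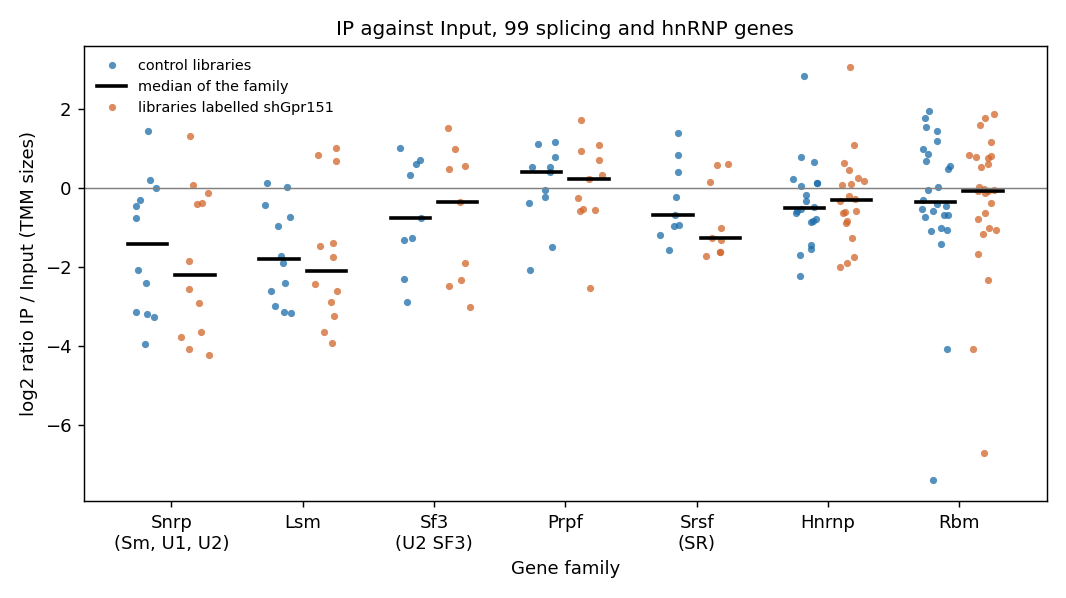
Log2 ratio of IP over Input on TMM sizes for the 99 tested genes, by family, in the control libraries (blue) and in those labelled shGpr151 (orange), with 1 point per gene and a bar at each family median. Lsm and Snrp genes lie lowest as families, with control medians of -1.81 and -1.42, Rbm5 is the lowest single gene and Hnrnpf the highest; on library totals every point would lie higher by 2.17 in control and 2.19 in shGpr151, and most families would then have medians above 0.

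Of 8 Sm ring genes, 6 were called lower, 1 higher and Snrpb not called. Snrpg, which encodes SmG, had 2407, 2375 and 2332 counts in the columns of Input control, 2304, 2308 and 2347 in Input shGpr151, 463, 471 and 450 in IP control, against 331, 347 and 338 in IP shGpr151. Input and IP columns did not overlap for Snrpg, which restates its ratio, and both Input libraries were alike. Its log2 ratio of IP to Input was -3.96 (-4.04 to -3.87) in control and -4.07 (-4.16 to -3.97) with the shGpr151 label. Snrpe (SmE) had 6531 and 7832 counts in Input control and Input shGpr151 and 2042 and 1409 in the IP libraries, with ratios of -3.27 (-3.35 to -3.20) and -3.77 (-3.85 to -3.68). Snrpd2 had -3.19 and -3.65, Snrpf -3.14 and -4.23, Snrpd1 -2.41 and -2.92, and Snrpd3 -2.08 and -2.55. On library totals Snrpd2, Snrpe, Snrpf and Snrpg remained called lower in both treatments.

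The exception in the ring was Snrpn, which encodes SmN, the neuronal counterpart of SmB and a product of the imprinted Prader-Willi region. Its columns held 128, 114 and 119 counts in Input control, 124, 120 and 127 in Input shGpr151, 989, 998 and 966 in IP control, against 753, 729 and 759 in IP shGpr151. Log2 ratios of IP to Input were 1.44 (1.28 to 1.60) in control and 1.30 (1.15 to 1.47) with the shGpr151 label. Snrpb itself, which encodes SmB, had 0.01 (-0.19 to 0.20) in control and -0.38 (-0.56 to -0.19) with the shGpr151 label, neither called. Snrpn and Snrpb encode near-identical proteins, and the sources used here do not say how reads shared by related copies were counted, so the split between these genes is uncertain. The U1 and U2 subunit genes lay closer to 0, with 1 of 4 called, Snrpc (U1-C), at -0.77 (-0.98 to -0.57) in control and -1.85 (-2.03 to -1.67) with the shGpr151 label.

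The LSm ring repeated this order. Of Lsm1 to Lsm8, 7 were called lower in control, with a median of -2.51. Lsm6 had 607, 602 and 614 counts in Input control, 208, 199 and 211 in the IP of the same treatment, a ratio of -3.16 (-3.29 to -3.02), and -3.25 with the shGpr151 label. Lsm5, Lsm3, Lsm7 and Lsm2 had -3.14, -3.00, -2.60 and -2.42 in control, and Lsm4 alone was near 0, at 0.12 (-0.24 to 0.50). Lsm1, which replaces Lsm8 in the cytoplasmic ring that promotes decapping, had -0.74 (-1.13 to -0.34), and Lsm8, the U6-specific subunit, -1.89 (-2.08 to -1.70). Lsm14a and Lsm14b, which encode processing-body proteins outside the rings, had 0.03 and -0.44, neither called in control.

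SF3 genes split by subunit, with 5 of 9 called lower and 2 higher. Sf3b5 and Sf3b6, a pair of small SF3B proteins, had 1433 and 640 counts in Input control and 878 and 802 in IP control, with ratios of -2.30 (-2.43 to -2.18) and -1.27 (-1.42 to -1.12), and Sf3a2 had -2.88 (-3.47 to -2.31) on 90 and 37 counts. Sf3b3 and Sf3b4 were also called lower in control, at -1.33 (-1.79 to -0.87) and -0.77 (-1.26 to -0.27). Sf3b1, the large scaffold of SF3B at the branch point, lay the other way, with 127 and 775 counts and a ratio of 1.01 (0.74 to 1.30), and Sf3b2 had 0.61 (0.34 to 0.90). Sf3b1 was also higher with the shGpr151 label, at 1.52 (1.20 to 1.86).

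Prpf genes had the highest family median, 0.40, with 3 of 11 called higher and 2 lower. Prpf6, a bridge within the tri-snRNP, had 13, 5 and 13 counts in Input control and 61, 67 and 74 in IP control, a ratio of 1.11 (0.56 to 1.70), and 1.71 (1.09 to 2.39) with the shGpr151 label. Prpf3, of the U4/U6 snRNP, had 1.16 (0.47 to 1.92). Prpf8, the core protein at the heart of the spliceosome, stood opposite, with 93 counts in Input control and 67 in IP control, at -2.07 (-2.54 to -1.60), and -2.52 with the shGpr151 label. Prpf18, a second-step factor, had -1.50 (-1.77 to -1.23) in control and -0.58 (-0.89 to -0.28), not called, with the shGpr151 label. Prpf4b, a kinase of the tri-snRNP, had -0.37 (-0.66 to -0.08) and was not called.

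SR protein genes had 2 of 9 called higher and 5 lower in control, with a median of -0.68. Srsf5 had 38, 38 and 36 counts in Input control and 301, 283 and 300 in IP control, a ratio of 1.38 (1.10 to 1.68), and Srsf6 had 0.84 (0.43 to 1.26). Srsf2, Srsf10, Srsf7, Srsf1 and Srsf9 were called lower, from -1.58 to -0.68. Srsf3, with 383 counts in Input control and 981 in IP control, was not called, at -0.24 (-0.41 to -0.07).

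Of 20 Hnrnp genes, 3 were called higher and 8 lower. Hnrnpf, which binds G-rich sequences near splice sites, was the member with the highest ratio in both treatments. Its columns held 47, 61 and 54 counts in Input control, 50, 60 and 44 in Input shGpr151, 1120, 1170 and 1189 in IP control, against 1057, 1054 and 1046 in IP shGpr151. Log2 ratios were 2.83 (2.60 to 3.06) and 3.07 (2.83 to 3.31), a 7.10-fold and 8.38-fold excess. Hnrnpa3 had 488 and 2536 counts and a ratio of 0.78 (0.64 to 0.92) in control and 1.07 (0.92 to 1.23) with the shGpr151 label. Its relatives in the A/B family differed, with Hnrnpa2b1 at -0.52 (-0.66 to -0.38), not called, and Hnrnpa1 at -1.55 (-1.68 to -1.41). Hnrnpa1 is known for many processed copies in the genome, and its counts are uncertain in the same way as those of the other multicopy genes. Hnrnpdl and Hnrnpd, a pair of related AU-rich binding proteins, had -2.23 and -1.71, and Hnrnpk, a KH-domain protein that follows mRNA into axons, -0.34 (-0.49 to -0.18), not called.

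Rbm genes spanned the widest range. Rbm5, a regulator of alternative splicing of apoptosis genes, had 10284, 10032 and 10087 counts in Input control and 7858, 7911 and 7717 in Input shGpr151, but 193, 169 and 181 in IP control, against 198, 188 and 168 in IP shGpr151. Its ratios were -7.40 (-7.53 to -7.28) and -6.70 (-6.82 to -6.57), and Rbm6, its neighbour in the genome, did not share them, with 26 counts in Input control, 57 in IP control and a ratio of -0.46 (-1.16 to 0.26). Rbm25, which works with U1 snRNP at 5′ splice sites, had 3926 and 3272 counts in the Input libraries and 699 and 475 in the IP libraries, at -4.09 (-4.20 to -3.97) and -4.07 (-4.22 to -3.94). Both genes were called lower on library totals as well. Whether all of these Input counts came from spliced, polyadenylated mRNA of the named gene was not tested, and the sources used here state neither strand use nor the counting of overlapping transcripts.

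Higher in IP were Rbm39, an SR-like splicing factor, with 86 counts in Input control and 758 in IP control, a ratio of 1.54 (1.22 to 1.88), Rbm27 at 1.76 (0.87 to 2.81) and Rbm28, a nucleolar protein, at 1.45 (0.70 to 2.30). Rbm11 had 1.95 (0.75 to 3.44), on 1, 4 and 1 counts in Input control and 15, 17 and 38 in IP control, and was not called with the shGpr151 label, at 0.79 (-0.29 to 2.02). Rbm10, a close relative of Rbm5, had 0.67 (0.02 to 1.39) in control and 1.58 (0.71 to 2.59) with the shGpr151 label, opposite to Rbm5. Rbm3, the cold-inducible member, had 1717 and 2465 counts and a ratio of -1.07 (-1.16 to -0.98). Rbm8a, which encodes the exon junction protein Y14, had -1.43 (-1.55 to -1.30).

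**Figure D2:**
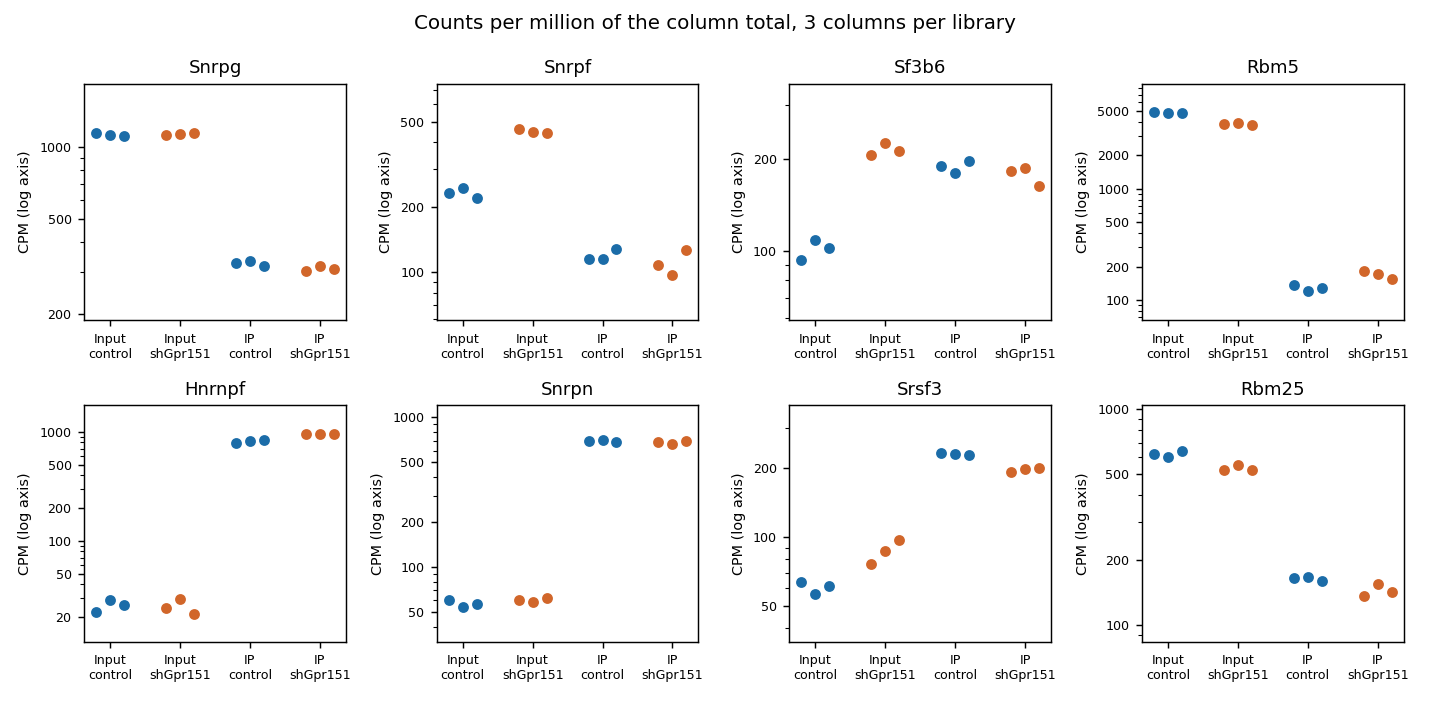
CPM of the column total, on log axes, for 8 genes in all 12 columns, with control columns in blue and shGpr151 columns in orange. The 3 points of a library lie close together, Hnrnpf and Snrpn are higher in every IP column, Snrpg, Rbm5 and Rbm25 are higher in every Input column, and Sf3b6 and Snrpf separate both Input libraries; the CPM scale is not TMM scaled, so Srsf3 and Sf3b6 lie higher in IP control than in Input control here but not on TMM sizes.

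The same comparison was made between the libraries labelled shGpr151, with the filter and the TMM sizes taken over all 12 columns. It gave 18 members higher and 45 lower, against 32.1% and 31.5% of all tested genes, with a median of -0.38 against 0.10 (70 higher and 12 lower on library totals, against 80.0% and 10.1% of all genes). Of the called members, 11 were higher and 40 lower in both treatments, and 0 had opposite calls. Across the 99 members, Spearman's rho between both sets of ratios was 0.92, given as a description, since members vary in depth and families share sequence. The order Hnrnpf highest, Rbm5 lowest held in both.

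Other genes of the pathway, from lists of genes outside these families, were near the background. Of 40 other core spliceosome genes, 12 were higher and 12 lower in control, and 10 and 15 with the shGpr151 label. SR-related factors and their kinases had 7 higher and 6 lower of 23 in both treatments, exon junction and export factors 6 and 6 of 19 in both, and other nuclear RNA-binding regulators 14 and 15 of 41 in control. Each list held genes with high Input and low IP counts, as Rbm5 had. Matr3 had 40416 counts in Input control and 1154 in IP control, at -6.73 (-6.81 to -6.64), Snrnp70 of U1 snRNP -5.85 (-5.98 to -5.72), Luc7l2, also a U1 factor, -5.76 (-5.90 to -5.63), and Sap18 -5.11 (-5.19 to -5.04). In the other direction Upf1, the helicase of nonsense-mediated decay, had 9 counts in Input control and 275 in IP control, at 3.34 (2.39 to 4.48).

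The Input libraries were compared next, for differences of the whole lysate with the hairpin label. Of the core genes, Sf3b6, Snrpc and Snrpf were about 2-fold higher in Input shGpr151, while no Hnrnp or Prpf gene was called. Of the 99 members 8 were called higher and 2 lower, against 4.32% of all tested genes higher and 4.78% lower, and the median was 0.17 against -0.07. Among the 76 members with a mean of at least 20 counts, 3 were higher and 2 lower. Of all genes with such a mean, 3.69% were higher and 7.18% lower. Sf3b6, which encodes the SF3B subunit next to the branch-point adenosine, had 196, 228 and 216 counts in Input control and 422, 461 and 436 in Input shGpr151, with a log2 ratio of 1.06 (0.93 to 1.20). Snrpc had 105, 113 and 94 against 196, 205 and 212, a ratio of 1.00 (0.80 to 1.20). Snrpf (SmF) had 493, 520 and 467 against 948, 914 and 908, a ratio of 0.93 (0.83 to 1.02). Columns of a library differed by counting noise alone, so the lack of overlap between both libraries restates the calls of these 3 genes. They were also called by edgeR on summed libraries when a coefficient of variation of 10% between samples was assumed. DESeq2 and the quasi-likelihood test of edgeR over 12 columns called them too, but both take the columns of a library as replicates. Those 2 calls thus restate the difference between both libraries and give no replicate check.

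The promoters of these 3 genes are shown because each was called higher in Input shGpr151, beside that of Rbm5, which had the lowest IP ratio. Each line gives the 250 bases before the RefSeq start (GRCm38.p6, not the build named by the submitters), 5′ to 3′ in the direction of the gene, with capitals on matches to 4 motifs, CCGGAA (the ETS core), GGGCGG (GC box), CCAAT and TATAAA, on either strand.
Snrpf promoter, chr10:93589659-93589908, strand -: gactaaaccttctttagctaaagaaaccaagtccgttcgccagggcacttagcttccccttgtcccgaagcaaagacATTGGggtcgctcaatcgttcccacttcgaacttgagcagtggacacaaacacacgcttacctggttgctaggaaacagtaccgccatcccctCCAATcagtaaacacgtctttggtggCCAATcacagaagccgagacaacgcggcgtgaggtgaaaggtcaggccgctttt
Snrpc promoter, chr17:27839837-27840086, strand +: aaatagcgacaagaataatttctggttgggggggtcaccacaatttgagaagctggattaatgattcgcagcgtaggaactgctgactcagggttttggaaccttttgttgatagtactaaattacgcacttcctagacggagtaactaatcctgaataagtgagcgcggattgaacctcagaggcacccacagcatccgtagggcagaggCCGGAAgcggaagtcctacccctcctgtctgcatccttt
Sf3b6 promoter, chr12:4817358-4817607, strand +: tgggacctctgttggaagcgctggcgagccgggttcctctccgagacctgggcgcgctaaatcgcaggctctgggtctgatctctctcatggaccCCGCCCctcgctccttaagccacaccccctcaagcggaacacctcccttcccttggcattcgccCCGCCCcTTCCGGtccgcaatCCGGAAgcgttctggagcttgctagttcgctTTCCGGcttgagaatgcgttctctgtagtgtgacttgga
Rbm5 promoter, chr9:107771003-107771252, strand -: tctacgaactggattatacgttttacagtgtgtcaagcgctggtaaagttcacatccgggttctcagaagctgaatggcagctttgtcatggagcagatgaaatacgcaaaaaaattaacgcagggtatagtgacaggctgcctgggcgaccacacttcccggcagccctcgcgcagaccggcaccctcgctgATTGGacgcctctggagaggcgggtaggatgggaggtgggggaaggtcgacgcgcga

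Sf3b6 held 3 ETS cores and 2 GC boxes, Snrpc 1 ETS core, Snrpf 3 CCAAT matches and Rbm5 1 CCAAT match, and no motif was common to Sf3b6, Snrpc and Snrpf. Among the 86 members with a promoter in the table, 38.4% held an ETS core, against 12.2% of 27025 windows of all genes and 15.2% of 17491 windows of protein-coding genes. GC boxes were in 57.0% of members' windows (32.9% of all, 42.7% of coding), CCAAT in 46.5% (34.5% and 36.3%) and TATAAA in 8.14% (13.0% and 12.4%). A match is a description of these letters and not evidence of a bound site.

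By family, the Input comparison had 10 of 12 Snrp genes with a ratio above 0 (median 0.27) and 9 of 9 SR genes above 0 (median 0.41), where 3773 of all 8312 tested genes lay above 0. Most of these single ratios were under the call: Snrpd1 had 0.53 (0.44 to 0.61), Snrpd2 0.35 (0.30 to 0.41), Snrpe 0.28 (0.24 to 0.33) and Snrpg -0.01 (-0.06 to 0.04). Below 0 lay Snrpa, at -0.47 (-1.04 to 0.09), and 4 of 9 Sf3 genes, among them Sf3a1, Sf3a2 and Sf3b1 at -0.45, -0.47 and -0.51, none of them called. In the SR family, Srsf9 was called, at 0.59 (0.02 to 1.16), a call that edgeR's quasi-likelihood test and DESeq2 did not make, whereas Srsf5 had 0.54 (0.19 to 0.91) and Srsf3 0.50 (0.31 to 0.69), not called. Of the LSm ring, Lsm2 was called higher at 0.59 (0.35 to 0.82), with Lsm8 at 0.54 and Lsm3 at 0.53 just below the fold. Hnrnp genes had 0 of 20 called, a median of -0.07 and a range from -0.59 to 0.49, Prpf genes 0 of 11.

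The remaining called members rested on few counts. Rbm15, part of the m6A writer complex, had 3, 3 and 4 counts in Input control and 13, 11 and 7 in Input shGpr151, at 1.65 (0.59 to 2.85). Rbm4 had 6, 9 and 10 against 19, 12 and 18, at 0.99 (0.27 to 1.75), and Rbm18 0.80 (0.10 to 1.53) on 28 and 48 counts. Lower were Lsm14b, with 10, 20 and 9 counts against 6, 7 and 5, at -1.09 (-1.99 to -0.25), and Rbm22, which encodes a protein of the catalytic core, with 67 and 37, at -0.84 (-1.46 to -0.24). Lsm14b lost its call without the second column of Input control, which held 20 of its 39 counts. Its ratio was then -0.65, with an interval that held 0 (-1.66 to 0.36). With the columns taken as replicates, DESeq2 called none of these 5 genes, and edgeR's quasi-likelihood test over 12 columns called all but Rbm18. Rbm5, the most counted member in Input, had -0.35 (-0.38 to -0.33), and Rbm25 -0.24 (-0.31 to -0.17), both under the fold.

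**Figure D3:**
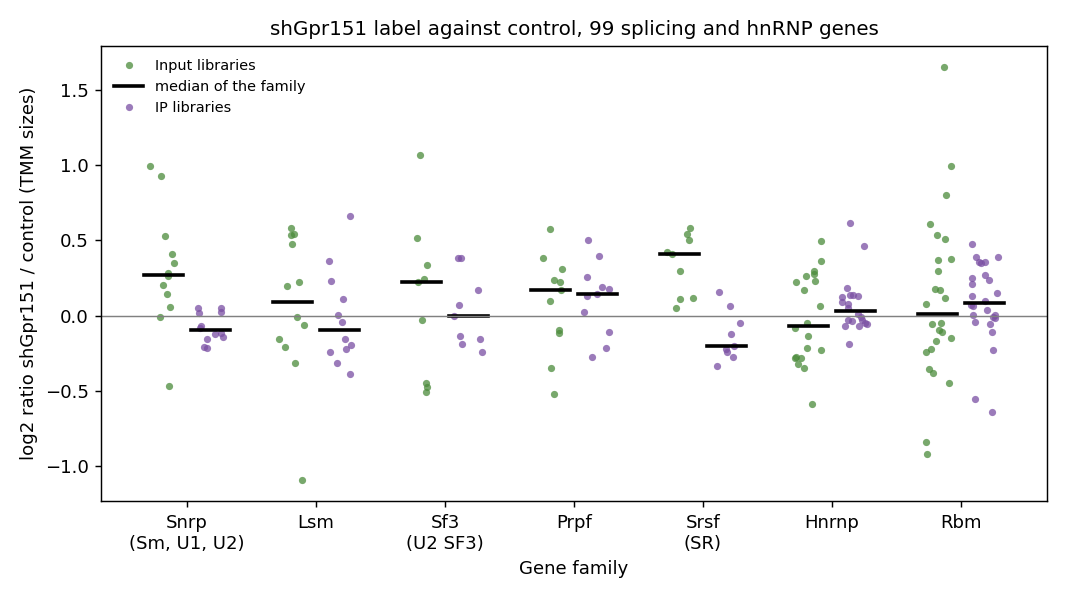
Log2 ratio of the shGpr151 library over the control library on TMM sizes for the 99 tested genes, by family, in Input (green) and in IP (purple), with 1 point per gene and a bar at each family median. In Input the SR genes all lie above 0 with a median of 0.41, in IP their median is -0.20, and the IP points of most families lie closer to 0 than the Input points.

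Marker lists of the cell types had medians on either side of 0 between both Input libraries. The median log2 ratios of Input shGpr151 to Input control were 0.44 for endothelial and mural cells, 0.21 for macrophages, -0.11 for neurons, -0.25 for Schwann cells, -0.26 for fibroblasts and -0.35 for satellite glia, beside 0.41 for the SR and 0.27 for the Snrp genes. Of 11 satellite glia markers 2 were called lower and 0 higher, 1 of 18 neuronal and 1 of 9 fibroblast markers were lower, and 0 of 4 Schwann cell markers, 0 of 10 macrophage markers and 0 of 7 endothelial and mural markers were called (summed levels of 174 and 232 CPM for the latter in Input control and Input shGpr151). Their part in the differences of the splicing genes was not tested. Of the other pathway lists, exon junction and export genes had 2 of 19 higher, Magohb at 0.77 (0.54 to 1.00) and Casc3 at 1.37 (0.21 to 2.67), and the 40 other core spliceosome genes had 0 called (median -0.03).

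The IP libraries were compared for differences of ribosome-bound transcripts with the hairpin label, in which Gpr151 itself was not lower. Few splicing genes differed between both IP libraries. Of the 99 members 2 were called higher and 0 lower, against 2.29% and 1.08% of all tested genes, and the median was 0.01 with a median absolute log2 ratio of 0.145 (0.179 for all tested genes). Lsm14a had 42, 37 and 29 counts in IP control against 45, 45 and 46 in IP shGpr151, a log2 ratio of 0.66 (0.28 to 1.04). Hnrnpul2, an hnRNP U-like protein, had 35, 46 and 42 against 43, 45 and 62, a ratio of 0.61 (0.26 to 0.97). Raw counts of Hnrnpul2 overlapped between both libraries. Relative to the smaller column totals of IP shGpr151 every column of both genes lay above those of IP control. Columns of a library differed by counting noise alone, so this separation restates the calls. With the columns taken as replicates, DESeq2 called neither gene and edgeR's quasi-likelihood test over 12 columns called both. Lsm14a fell under the fold without the third column of IP control, at 0.50, and Hnrnpul2 without the first of IP control, at 0.49, or the third of IP shGpr151, at 0.41.

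The best counted members showed how narrow the IP differences were. Hnrnpf, with 3479 and 3157 counts, had 0.19 (0.12 to 0.26), Hnrnpa3 0.01 (-0.08 to 0.09), Snrpn -0.07 (-0.15 to 0.01), Rbm3 -0.11 (-0.20 to -0.02) and Snrpe -0.21 (-0.31 to -0.11). For these 5 genes a 1.5-fold difference lay outside the counting interval. Of 9 SR genes 7 lay below 0, with Srsf7 at -0.33 (-0.60 to -0.06), Srsf3 at -0.27 (-0.42 to -0.13) and Srsf5 at -0.24 (-0.39 to -0.09), and of 12 Snrp genes 8 lay below 0, with a family range of -0.22 to 0.05. Rbm5 had 0.36 (0.18 to 0.53), Prpf18 0.39 (0.13 to 0.66) and Lsm3 -0.39 (-0.64 to -0.14). Fibroblast markers summed to 1148 and 1413 CPM in IP control and IP shGpr151 with 0 of 9 called, and macrophage markers had 1 of 10 higher. Among the other pathway genes, 1 was called, Tial1 at 0.59 (0.20 to 0.97).

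The difference between the hairpin ratio in IP and the hairpin ratio in Input asks whether IP and lysate levels moved apart. IP holds RNA of Cre-expressing neurons and Input that of every cell present. Changes of ribosome association and of the cells in the lysate thus cannot be told apart on this measure. SR and Sm genes lay below 0 on this measure throughout, while members were called higher no more often than all tested genes. Of the 99 members 7 were called higher and 11 lower, against 8.73% and 7.13% of all tested genes, with a median of -0.10 against 0.06. All 9 SR genes lay below 0, and Srsf5, Srsf3 and Srsf7 were called, at -0.78 (-1.16 to -0.41), -0.77 (-1.01 to -0.53) and -0.74 (-1.12 to -0.37). All 8 Sm ring genes lay below 0 as well, from -1.08 to -0.11, where 3835 of 8312 tested genes did. On library totals each of these differences would be higher by 0.02, and with RLE size factors lower by 0.04.

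Sf3b6, Snrpf and Snrpc had the most precise differences among called members below -1, at -1.20 (-1.41 to -0.99), -1.08 (-1.30 to -0.87) and -1.08 (-1.35 to -0.81). Their IP counts show what this rests on. Sf3b6 had 268, 255 and 279 counts in IP control against 199, 205 and 178 in IP shGpr151, an IP ratio of -0.14 (-0.29 to 0.02) beside the Input ratio of 1.06. Snrpf had 163, 162 and 181 against 118, 106 and 138, an IP ratio of -0.16 (-0.35 to 0.04) beside 0.93. Their Input levels thus differed about 2-fold between labels, while their IP levels did not differ beyond counting error.

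Lsm3 had -0.92 (-1.20 to -0.65), Sf3b5 -0.70 (-0.88 to -0.52) and Lsm1 -0.72 (-1.26 to -0.18). Rbm15 and Rbm4, on few counts, had -1.65 (-2.83 to -0.47) and -1.63 (-2.63 to -0.64). The columns of Rbm4 in IP shGpr151 held 14, 8 and 2 counts. Higher were Lsm14b at 1.45 (0.54 to 2.37), Hnrnpul2 at 1.20 (0.53 to 1.87), Rbm22 at 0.96 (0.25 to 1.67), Prpf18 at 0.91 (0.52 to 1.31), Lsm14a at 0.81 (0.03 to 1.60), Hnrnpa0 at 0.74 (0.36 to 1.12) and Rbm5 at 0.71 (0.53 to 0.88). Without the second column of Input control, Lsm14b was at 1.01 (-0.01 to 2.03) and no longer called. When a coefficient of variation of 10% between samples was assumed, edgeR called 0 of these 18 genes on the summed libraries (16 members at an unadjusted p under 0.05). Prpf18 had the columns 67, 78 and 72 in Input control, 55, 53 and 41 in Input shGpr151, 89, 79 and 64 in IP control, against 87, 79 and 77 in IP shGpr151, so that its difference came from a lower Input and a slightly higher IP level.

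**Figure D4:**
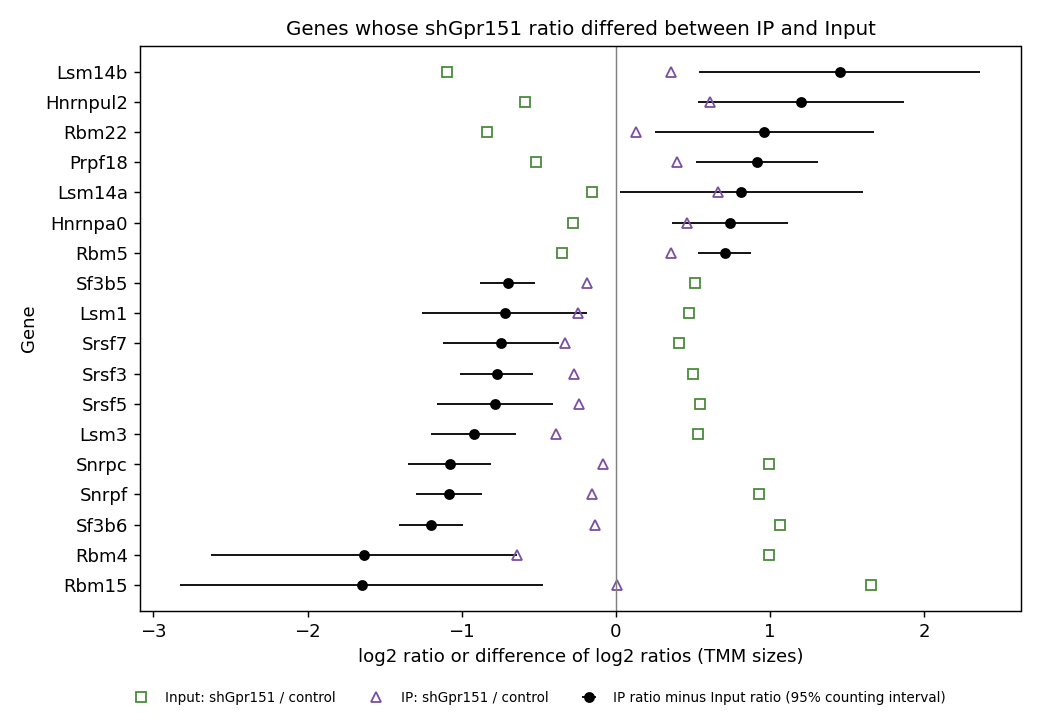
Hairpin ratio in IP minus hairpin ratio in Input (black points, bars of 95% counting intervals) for the 18 called members, with the Input ratio (green squares) and the IP ratio (purple triangles) of each gene, all log2 on TMM sizes. The 7 genes at the top have Input ratios below 0 and IP ratios above 0, and for Sf3b6, Snrpf and Snrpc the Input ratio near 1 makes up most of the difference.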

How the data were processed

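RNA of 12 samples was read as nanopore cDNA-PCR libraries, per the labels' protocols. The authors deposited raw gene counts in whole numbers, with no normalization. The submitters' processing notes name minimap2, Salmon, GRCm39 and mm39, with no versions or roles. How reads shared by paralogs, pseudogenes or overlapping transcripts were counted, and whether by strand, is not stated in the sources used here. Symbols matched 9061 of 9073 IDs.

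Columns were compared by chi-square and summed to 1 sample per group. The labels do not say whether samples of a group came from separate animals or cultures. Sizes were TMM effective sizes (edgeR 4.0.16, R 4.3.3) after filterByExpr at a minimum count of 10, over all 12 columns. Intervals were exact conditional (Clopper-Pearson), or Wald on counting error for the difference of ratios, and the script was tested on simulated data. Alternatives were RLE sizes, library totals, other filters and folds, edgeR's quasi-likelihood test with Benjamini-Hochberg adjustment at 0.05 with and without a replicate block, DESeq2 1.42.0, an assumed dispersion, and each column left out. Protein length was planned but not analysed here. The members and lists were chosen with earlier results of these data known. Named were the 2 best counted genes per family, up to 5 called genes in each direction per comparison (4 for the difference of ratios) with at least 30 counts, and up to 2 called genes per pathway list; others were named after their values were seen. Promoters are RefSeq's, matched by symbol for 86 members. Figures used matplotlib 3.10.9.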

Additional observations from a re-analysis of the deposited data

Results flagged for a closer look

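For 8 genes the hairpin ratio in IP and that in Input differed by more than counting error and by at least 1.5-fold, the 4 largest in each direction. There was 1 library per group, so the difference has no replicate check. Lsm14b was at 1.45, Hnrnpul2 at 1.20, Rbm22 at 0.96 and Prpf18 at 0.91, each with a higher ratio in IP. Rbm15 was at -1.65, Rbm4 at -1.63, Sf3b6 at -1.20 and Snrpf at -1.08, each with a higher ratio in Input. With the columns taken as replicates, the quasi-likelihood test of edgeR also called 15 of the 18 genes called on this measure. It did not call Lsm1, Lsm14a and Rbm22. DESeq2, which takes the columns in the same way, also called 12, without these 3 and Lsm14b, Rbm15 and Rbm4.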

How the results depend on the processing

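The counts of called members for IP against Input (62 in control and 63 with the shGpr151 label) stayed within 1.5 times under each alternative run, at 42 to 89 and 49 to 82. The hairpin counts moved. At a 2-fold call they were 0 for IP, 3 for Input and 7 for the difference of ratios, and at a lower fold of the call 10, 24 and 32. A mean of at least 20 counts left 76 members and 5 Input calls, 3 higher and 2 lower. Of all genes past that filter, 3.69% were higher and 7.18% lower. With the columns taken as replicates, edgeR's quasi-likelihood test over all 12 called 12 members for IP and 28 for Input. At an unadjusted p under 0.05 it called 22 and 38. For IP the 12 were 6 higher and 6 lower, against 3.72% and 5.02% of all genes. For Input the 28 were 20 and 8, against 8.34% and 8.7%. On the compared groups alone it called 13 of 96 members for IP (4.59% of all genes higher, 5.77% lower). For Input it called 24 of 78 there (16.2% and 13.4%). DESeq2 called 8 for IP (1.31% and 3.86%) and 20 for Input (7.21% and 5.8%). With the replicate block the quasi-likelihood test called 12 and 28, and no count of calls moved by more than 1 from the fit without it. Same-numbered columns did not deviate together (correlations of -0.01 to 0.02). Columns of a group differed by counting noise alone, so neither these correlations nor the block can show whether the numbers pair samples. With 1 library per group and an assumed coefficient of variation of 10%, the calls were 0 for IP, 3 for Input and 0 for the difference (4, 16 and 16 at an unadjusted p under 0.05). Leaving out each column in turn gave 1 to 4 calls for IP (4 without IP control column 2, 1 without column 3 of either IP library), 8 to 14 for Input, 59 to 64 and 61 to 66 for IP against Input in control and shGpr151, and 18 to 23 for the difference. Shares of all genes called higher and lower in these runs were 1.85% to 2.22% and 1.38% to 1.62% for IP. For Input they were 3.9% to 4.48% and 4.34% to 4.94%, and for the difference 6.34% to 8.62% and 6.69% to 9.2%. On library totals, which add 1 constant to every ratio of IP to Input, 29 of 44 members called lower in control lay above 0 and 24 were called higher, and 26 and 16 of 45 with the shGpr151 label. Among them were Sf3b6 in control (0.90), Prpf18 in control (0.67) and Srsf3 with the shGpr151 label (1.18). Srsf5, called higher in IP with the shGpr151 label at 0.60, lost its call without column 2 or column 3 of Input shGpr151 (0.58 and 0.52). The planned bins of protein length were not run. Depth limits Input most, where the median member had 90 or 101 counts.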
